A study of Mus musculus with 11 samples.

Results

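Of the 25938 gene symbols measured in single nuclei from mouse brain, 33 encode subunits of glutamate and GABA receptors on a fixed list, and all 33 were found in the table. The list was matched to the table by gene symbol alone, but it was chosen with earlier results of these data known. Family members outside it were not analysed here. It holds 4 AMPA, 6 NMDA, 5 kainate and 1 delta receptor subunits, 6 metabotropic glutamate receptors, 9 GABA-A receptor subunits and 2 GABA-B receptor subunits. The nuclei came from 11 frozen brain samples of mice, 1 library each, all labelled as homozygous knock-ins of the human transferrin receptor (TfR). Dosing was intravenous, once a week for 4 doses, and brains were collected 72 h after the final one. ATV:BACE1 (57 mg/kg, n = 3) binds the TfR, carries no antisense oligonucleotide (ASO) and served as control. OTV:Malat1 (60 mg/kg, n = 3) joins a TfR-binding molecule to an ASO against the nuclear RNA Malat1, and nonTV:Malat1 (60 mg/kg, n = 3) carries that ASO on a molecule without TfR binding. Malat1 ASO (2.5 mg/kg, n = 2) is the oligonucleotide alone. Replicate number 1 of each group was female aged 2.33 months, number 4 male aged 2.57 months and number 5 male aged 2.33 months, and the deposited batch follows the number. Number 1 against 4 and 5 therefore differs in batch, sex and in part age, and number 5 against 4 in batch and age but not in sex, and these cannot be told apart within a contrast. The labels give the region as posterior and the deposited metadata as cortex, and the metadata name the strain C57BL/6J without the knock-in. Neither conflict was resolved.

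Glutamate is the main excitatory and GABA the main inhibitory transmitter of the brain. AMPA, NMDA, kainate and GABA-A receptors are ion channels assembled from several subunits, and the mix of subunits sets how fast the channel opens, what it conducts and which drugs bind it. Metabotropic glutamate receptors and the paired subunits of the GABA-B receptor act instead through G proteins. Astrocytes and oligodendrocyte precursors carry some of these receptors as well, so that a subunit is not by itself a neuronal marker.

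Library totals ran from 33235994 to 43972886 unique molecular identifiers (UMIs), over 7546 to 13840 nuclei with medians of 2205 to 3666 UMIs. Malat1 took 4.00 to 5.03% of UMIs in the 3 OTV:Malat1 libraries and 7.45 to 8.39% in the other 8. Of 108788 barcode sequences, 1495 occurred in more than 1 library. The deposited names call 76211 nuclei neurons, 12720 astrocytes and 14321 oligodendrocytes. Neurons made up 60.8 to 66.7% of nuclei in replicate 1, 64.6 to 70.0% in replicate 4 and 71.7 to 80.9% in replicate 5. Cluster 0 of the neurons (31326 nuclei) carried Slc17a7 at 156 CPM (UMIs of the gene per 1000000 UMIs), a mark of excitatory neurons. Cluster 1 (22208 nuclei) carried Gad1 at 117, Gad2 at 155 and also Slc17a6 at 64.3 CPM. Cluster 2 (14713 nuclei) carried Rarb at 1017, Rgs9 at 566 and Gad1 at 104 CPM. Clusters 5 and 9 are smaller (4286 and 1912 nuclei), 45.3% and 41.0% of their neurons are called doublets in the deposited metadata (11.7% in cluster 0, 3.0% in cluster 1 and 20.9% in cluster 2), and they carry markers of other cells, Pdgfra at 116 CPM in cluster 5 and Mbp at 969.6 CPM in cluster 9. The cerebellar markers Cbln1, Cbln3 and Pcp2 stayed at or below 2.42 CPM in each neuronal cluster.

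Across clusters 0, 1 and 2 the subunits fell into distinct profiles, given here as the mean CPM of 11 libraries ± SD with no test, since the clusters were made from the same nuclei. Each gene is compared only with itself, because CPM is not corrected for gene length. Of the 33 members, 9 were highest in cluster 0, 10 in cluster 1 and 14 in cluster 2. The highest cluster was the same in all 11 libraries for 5, 7 and 8 of these. For 10 members the library ranges of the highest and the second cluster did not overlap. The share of all genes with such patterns is not given here, so these counts describe the members only and do not set them apart from other genes.

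**Figure D1:**
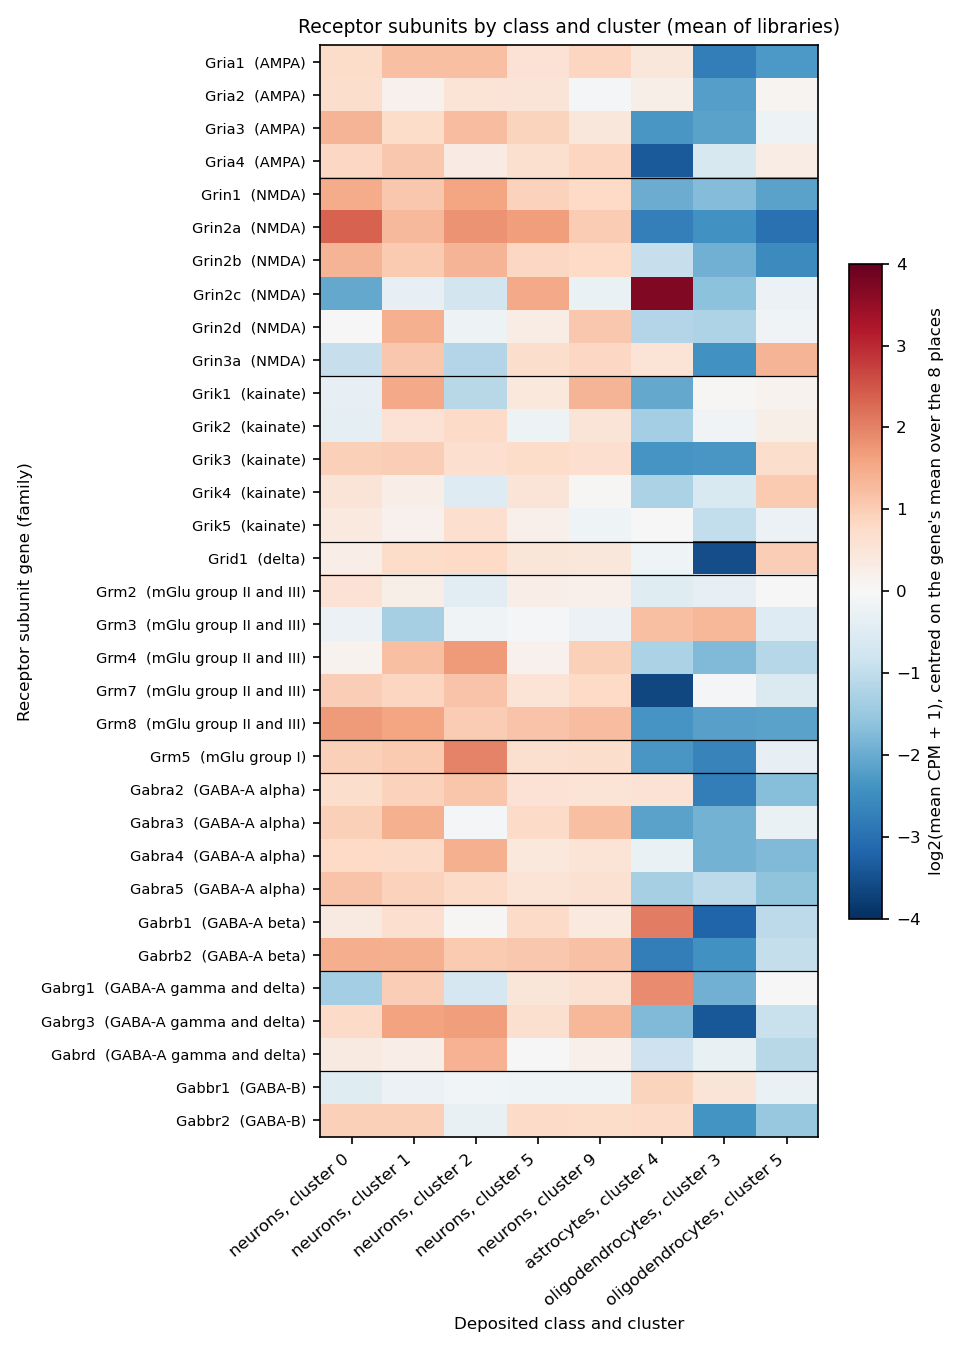
Heat map of the 33 receptor genes (rows) over 8 groups of nuclei (columns), coloured by log2(mean CPM + 1) minus the gene's own mean over the columns. Of neuronal clusters 0, 1 and 2, Grik1, Grin3a and Gabrg1 stand out in cluster 1, and Grm5 and Gabrd in cluster 2. Cluster 9 is close to cluster 1, at 439 CPM for Grik1, 175 for Grin3a and 47.4 for Gabrg1. Grin2c, Gabrb1 and Gabrg1 stand out in astrocytes.

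Among AMPA receptor subunits, which carry the fast excitatory current, Gria2 and Gria3 were highest in cluster 0. Gria2, whose edited form blocks calcium entry, stood at 1691 ± 127 CPM in cluster 0, 1527 ± 106 in cluster 2 and 1162 ± 57.1 in cluster 1. Gria4 had another order, with 1164 ± 81.4 CPM in cluster 1, 993 ± 54.9 in cluster 0 and 690.4 ± 40.6 in cluster 2. Gria1 did not separate clusters 2 and 1, at 1113 ± 103 and 1094 ± 98.1 CPM with the order kept in 7 of 11 libraries, and was lower in cluster 0 at 801 ± 103. Gria3 lay at 844 ± 43.0, 786 ± 37.7 and 551 ± 27.3 CPM in clusters 0, 2 and 1.

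The NMDA receptor, a calcium-permeable channel, pairs the obligatory subunit encoded by Grin1 with others that set its kinetics. Grin1 itself varied 1.40 times, from 332 ± 24.9 CPM in cluster 1 to 464 ± 35.0 in cluster 2. Grin2a was 1.46 times as high in cluster 0, at 1577 ± 141 CPM, as in cluster 2, at 1078 ± 46.9, with no overlap between libraries, and lay at 763 ± 45.7 in cluster 1. Grin2b, in contrast, did not separate clusters 0 and 2, at 1445 ± 92.1 and 1430.1 ± 75.3 CPM, and cluster 0 was the higher in 6 of 11 libraries. Of clusters 0, 1 and 2, Grin2d and Grin3a were highest in cluster 1. Grin2d stood at 42.8 ± 1.46 CPM there and at 15.1 ± 2.38 and 13.3 ± 2.22 in clusters 0 and 2. Grin3a, whose subunit lowers calcium flow, stood at 206 ± 16.7 CPM against 51.5 ± 6.36 and 43.4 ± 7.44, a ratio of 4.01 to the next of these clusters. Neither gene was particular to cluster 1. Neurons of cluster 9 held Grin2d at 33.8 ± 8.96 and Grin3a at 175 ± 16.7 CPM, and those of cluster 5 held Grin3a at 160 ± 34.5. Grin2c was low in every one of the 3 clusters, at 3.04 to 12.4 CPM.

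Kainate receptors modulate transmitter release and postsynaptic excitability. Grik1 was the most uneven of the 5 genes, at 483 ± 45.4 CPM in cluster 1, 134 ± 20.7 in cluster 0 and 77.6 ± 23.2 in cluster 2, so that the highest and lowest clusters differed 6.22 times. Grik2 was high in clusters 2 and 1, at 1896 ± 124 and 1682 ± 119 CPM, and lower in cluster 0 at 859 ± 61.1. Grik4, a high-affinity subunit, was highest in cluster 0 at 167 ± 13.1 CPM and lowest in cluster 2 at 81.8 ± 8.27. Grik3 did not separate clusters 1 and 0 (139 and 138 CPM), and Grik5 ran from 98.4 CPM in cluster 1 to 140.1 in cluster 2. Grid1, a delta receptor gene whose product bridges synapses, was at 631 ± 60.5, 611 ± 48.9 and 434 ± 35.2 CPM in clusters 2, 1 and 0.

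Of the metabotropic receptors, Grm5, the Gq-coupled receptor of the list, was 1.89 times as high in cluster 2, at 2898 ± 281 CPM, as in cluster 1, at 1535 ± 103, and lay at 1416 ± 75.5 in cluster 0. The remaining 5 are Gi-coupled. Grm3 stood at 463 ± 22.5 CPM in cluster 2 and 429 ± 40.5 in cluster 0, and at 202 ± 26.0 in cluster 1. Grm4 was highest in cluster 2 (57.8 ± 12.4 CPM) and lowest in cluster 0 (19.3 ± 2.37), whereas Grm8 was lowest in cluster 2 (289 ± 35.0) and at 460.2 ± 24.3 in cluster 0. Grm7 differed only 1.23 times between its highest and lowest clusters, and Grm2 was sparse at 2.48 to 5.88 CPM.

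GABA-A receptors are chloride channels built of alpha, beta and a gamma or delta subunit. The alpha subunits each had their own order. Gabra3 stood at 114 ± 10.8 CPM in cluster 1, 83.2 ± 7.06 in cluster 0 and 40.7 ± 6.78 in cluster 2, while Gabra4 was highest in cluster 2 at 229 ± 28.2 against 147 ± 7.61 and 144 ± 13.5 in clusters 0 and 1. Gabra2 ran from 294 to 391 CPM and Gabra5 from 44.8 to 58.0. Gabrb1 was highest in cluster 1 (991 ± 60.8 CPM against 803 ± 44.5 in cluster 0), and Gabrb2 did not separate clusters 0 and 1 (382 and 381). Gabrg1 was 3.27 times as high in cluster 1, at 61.2 ± 7.48 CPM, as in cluster 2. It was not particular to cluster 1, with 47.4 ± 9.93 CPM in cluster 9 and 43.2 ± 5.30 in cluster 5. Gabrd, found in extrasynaptic receptors that carry tonic inhibition, was 2.11 times as high in cluster 2, at 74.5 ± 10.9 CPM, as in cluster 0, at 35.2 ± 7.20. Gabrg3 was at 1251 ± 144 and 1206 ± 87.3 CPM in clusters 2 and 1 and at 676 ± 33.4 in cluster 0. The paired GABA-B subunits parted company: Gabbr2 was at 442 ± 34.9 and 438 ± 51.5 CPM in clusters 1 and 0 but 183 ± 23.1 in cluster 2, and Gabbr1 lay between 103 and 135 CPM.

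With clusters 5 and 9 included, 4 members were highest in cluster 5, namely Grin2c, Grik4, Grm3 and Gabrb1. Grin2c stood at 47.0 ± 6.71 CPM in cluster 5 against 12.9 ± 3.34 in cluster 9. Cluster 5 also carries the astrocyte marker Slc1a3 at 354 CPM, against 15.2 to 62.5 in clusters 0, 1 and 2. Without called doublets, Grm3 and Gabrb1 were no longer highest there, at 291 CPM (from 484) and 751 CPM (from 1065), below clusters 2 and 1. Grin2c and Grik4 stayed highest in cluster 5, at 31.8 and 259 CPM, and Grin3a (305 CPM), Grik3 (143) and Grid1 (683) became so.

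Most subunits were highest in neurons, and a few in glia. Neurons were the highest of the 3 classes for 27 members, in all 11 libraries for 26 of them, astrocytes for 5 and oligodendrocytes for 1. Glial nuclei are shallow (median 1402 UMIs in astrocytes and 947 in oligodendrocytes, 3926 in neurons), and free RNA can add neuronal transcripts to them. For comparison, 12 neuron markers were measured in the same way. Their astrocyte-to-neuron ratio had a median of 0.422 and ran from 0.0883 for Syt1 to 2.34 for Nefl, and their oligodendrocyte-to-neuron ratio had a median of 0.514 and ran from 0.0995 to 2.43. The members' median ratio was 0.352 in astrocytes and 0.229 in oligodendrocytes, inside both ranges. A glial level within the marker range is not told apart from background here.

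In astrocytes 4 members stood above all 12 markers. Grin2c, an NMDA receptor gene, was at 197 ± 27.8 CPM in astrocytes and 9.26 ± 1.37 in neurons, and the ratio within a library averaged 22.1 (range 15.5 to 36.6). Gabrg1 was at 109 ± 7.95 against 27.3 ± 3.20 CPM, with a ratio of 4.02 (3.30 to 4.82). Grm3 stood at 1133 ± 254 against 387 ± 20.4 CPM (2.96, 2.02 to 4.35) and Gabrb1 at 2380.4 ± 288 against 821 ± 46.2 CPM (2.90, 2.41 to 3.37). In each of the 11 libraries these 4 genes were higher in astrocytes than in neurons. Gabbr1 and Grin3a were also higher in astrocytes than in neurons, at 256 ± 21.2 against 117 ± 7.54 and 142 ± 19.7 against 95.1 ± 7.37 CPM, but their ratios of 2.19 and 1.50 lay within the marker range. At the other end, Gria3, Gria4, Grin1, Grin2a, Grm7, Grm8 and Gabrb2 had astrocyte levels of 0.06 to 0.116 of the neuronal ones.

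**Figure D2:**
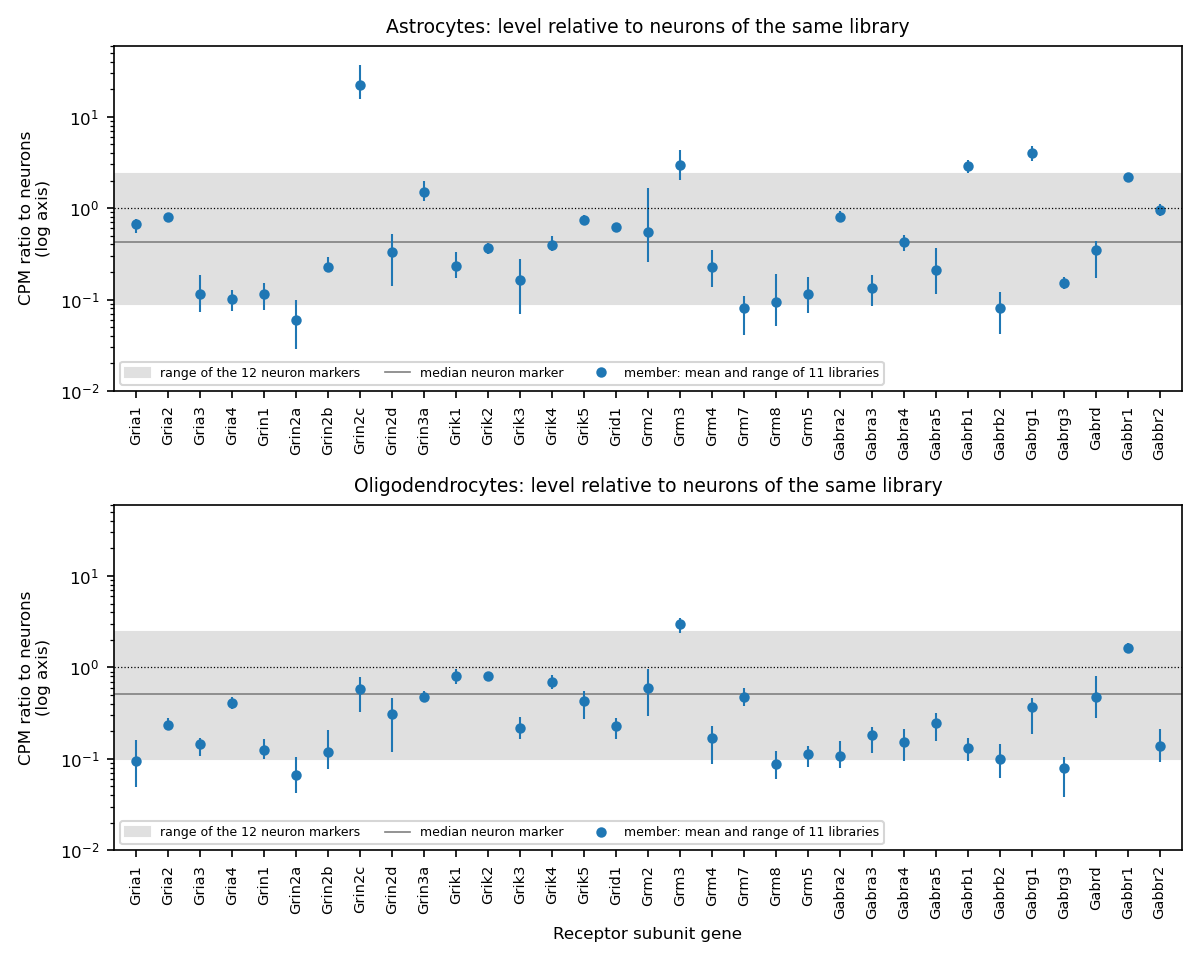
Ratio of the CPM in astrocytes (upper panel) and oligodendrocytes (lower panel) to that in neurons of the same library, on a log axis. Points are means and bars the range of 11 libraries for each of the 33 genes, and the grey band is the range of the 12 neuron markers. The means of Grin2c, Gabrg1, Grm3 and Gabrb1 lie above the band in astrocytes, and that of Grm3 in oligodendrocytes.

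Oligodendrocytes had 1 member above all markers, Grm3, at 1141 ± 124 CPM, which did not differ from astrocytes beyond the spread and was the higher of the pair in 6 of 11 libraries. Grik2 and Grm7 were at 1059 ± 118 and 894 ± 134 CPM in oligodendrocytes, or 0.811 and 0.472 of neurons, and Gria1 at 86.8 ± 22.9 CPM, or 0.0951. Grm3 was also above the markers in pericytes, where its ratio was 1.68 (1.27 to 2.25), and Grin2c in the class named glia (3.02, 1.65 to 4.06). In microglia, vascular endothelium and leptomeningeal cells no member exceeded all 12 markers. Vascular smooth muscle (330 nuclei, 8 libraries) is not compared with the markers here. Grm3 stood there at 1738 ± 438 CPM, above its mean in neurons, astrocytes and oligodendrocytes. Grm7 stood there at 2367 ± 509 CPM, against 1893 ± 90.6 in neurons.

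The nuclei named oligodendrocytes fall mainly in cluster 3 (12991 nuclei), with 779 in cluster 5. The latter carried the precursor markers Pdgfra at 406, Vcan at 578 and Lhfpl3 at 3175 CPM, against 6.33, 5.12 and 45.9 in cluster 3, together with Mbp at 2525 CPM. Receptor levels of these nuclei differed strongly from those of cluster 3. Grid1 was at 716 ± 118 CPM in cluster 5 and 30.5 ± 9.65 in cluster 3, Grin3a at 252 ± 54.7 and 17.6 ± 6.51, and Grm5 at 588 ± 168 and 114 ± 28.1. Gria2 was at 1128 ± 135 and 225 ± 39.2 CPM, Grik3 at 115 ± 39.0 and 13.1 ± 3.93, and Gabrg3 at 213 ± 67.0 and 36.6 ± 14.7. Grm3 and Gabbr1 had the opposite order, at 356 ± 148 against 1289 ± 133 and 121 ± 21.3 against 207 ± 21.7 CPM. Against neurons of the same library, Grin3a (2.67, 1.51 to 3.78), Grik4 (1.73, 0.897 to 2.29) and Grid1 (1.37, 0.973 to 1.70) exceeded all 12 markers in these nuclei, whose highest marker ratio was 1.07. Grin2c and Gabrg1 did so too, at 13.3 ± 12.8 and 29.9 ± 8.13 CPM.

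Genes of the GABA-A receptor lie side by side in the genome, and neighbours shared a highest cluster in some cases and not in others. On chromosome 5 of mm10 (GENCODE vM21), Gabrg1 spans 70751047 to 70842617, Gabra2 70957597 to 71095849, Gabra4 71569749 to 71658308 and Gabrb1 71658113 to 72149037, a stretch of 1398 kb that holds 4 members. On chromosome 7, Gabrg3 (56716465 to 57387188) and Gabra5 (57407672 to 57510059) lie within 794 kb. Gabra4 and Gabrb1 run in opposite directions and overlap by 196 bases at their 5′ ends. Gabrb1 was 2.90 times as high in astrocytes as in neurons and Gabra4 0.43 times, and Gabra4 was highest in cluster 2, where Gabrb1 was lowest of clusters 0, 1 and 2. Gabrg1, at the other end of the stretch, was like Gabrb1 highest in cluster 1 and above all 12 markers in astrocytes, and Gabra2 was like Gabra4 highest in cluster 2. Gabrg3 and Gabra5 were highest in clusters 2 and 0. Because reads from overlapping genes are hard to assign without strand, the shared bases are a limit on both. How the counting used strand is not given in the sources used here. Windows around annotated starts were read from RefSeq (GRCm38.p6, the assembly behind mm10; 250 bases before and 50 after each start) and matched 23 of the 33 members. The facing pair and Grin2c, the member with the largest ratio between astrocytes and neurons, are shown here 5′ to 3′ along the gene, with the 50 bases after the start in capitals.
Gabra4, chr5:71658259-71658558, minus strand: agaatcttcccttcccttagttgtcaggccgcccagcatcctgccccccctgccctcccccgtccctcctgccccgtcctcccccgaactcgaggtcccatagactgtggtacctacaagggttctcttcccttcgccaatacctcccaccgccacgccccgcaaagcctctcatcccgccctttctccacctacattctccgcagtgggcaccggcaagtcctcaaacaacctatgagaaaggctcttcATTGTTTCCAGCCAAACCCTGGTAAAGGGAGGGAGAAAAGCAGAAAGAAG
Gabrb1, first of 2 starts, chr5:71657671-71657970, plus strand: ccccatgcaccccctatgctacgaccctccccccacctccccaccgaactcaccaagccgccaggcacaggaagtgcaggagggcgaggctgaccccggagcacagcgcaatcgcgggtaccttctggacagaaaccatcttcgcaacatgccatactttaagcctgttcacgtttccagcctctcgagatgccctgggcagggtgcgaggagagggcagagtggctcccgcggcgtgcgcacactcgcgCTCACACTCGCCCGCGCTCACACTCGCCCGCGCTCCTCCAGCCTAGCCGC
Grin2c, chr11:115267194-115267493, minus strand: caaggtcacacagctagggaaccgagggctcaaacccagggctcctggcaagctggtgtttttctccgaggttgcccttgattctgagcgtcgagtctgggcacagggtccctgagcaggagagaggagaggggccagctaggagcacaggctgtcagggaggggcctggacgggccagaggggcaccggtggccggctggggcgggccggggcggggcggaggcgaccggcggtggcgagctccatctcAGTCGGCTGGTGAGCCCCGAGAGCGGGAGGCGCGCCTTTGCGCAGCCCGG
The RefSeq start of Gabra4 lies 387 bases beyond the first start of Gabrb1 in the direction of Gabrb1 transcription. The letters CG occur 12 times in the Gabra4 window, 25 times in the Gabrb1 window and 22 times in the Grin2c window. The median over all 32851 windows of the table was 7, and 94.6% of them hold at least 1. The G and C share of the 30 windows of members had a median of 61.0%, against 52.7% over all windows, and was lowest for Gabrg1 at 38.3%.

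No receptor subunit passed the test between dosing groups. UMI counts were summed per library and tested with edgeR's quasi-likelihood test, with p-values adjusted by Benjamini and Hochberg over all genes and called at 0.05. In the sum of all nuclei 0 of 33 members were called for OTV:Malat1 against ATV:BACE1, nonTV:Malat1 against ATV:BACE1, Malat1 ASO against ATV:BACE1 or OTV:Malat1 against nonTV:Malat1, where 0.0% of the 21409 genes tested were called in each comparison. At an unadjusted p under 0.05 there were 0, 0, 1 and 0 members and 161, 193, 375 and 164 genes of all, and DESeq2 called 0 members too. The comparisons share their control libraries. The ASO target Malat1 itself was not called for OTV:Malat1 against ATV:BACE1 in all nuclei, also not with the replicate number as a block. Its TMM-scaled CPM was 48694, 39969 and 48532 in OTV:Malat1 and 71704, 82306 and 82627 in ATV:BACE1 (replicates 1, 4 and 5). A count of 0 in these fits therefore does not show that a gene was unchanged. The members' changes in OTV:Malat1 against ATV:BACE1 had a median of -0.0055 log2 units (all genes 0.0068) and ran from -0.093 to 0.14, with standard errors of 0.08 to 0.21. They ran from -0.12 to 0.24 in nonTV:Malat1 (median -0.043), from -0.20 to 0.28 in Malat1 ASO (median -0.06) and from -0.17 to 0.12 for OTV:Malat1 against nonTV:Malat1 (median 0.035).

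**Figure D3:**
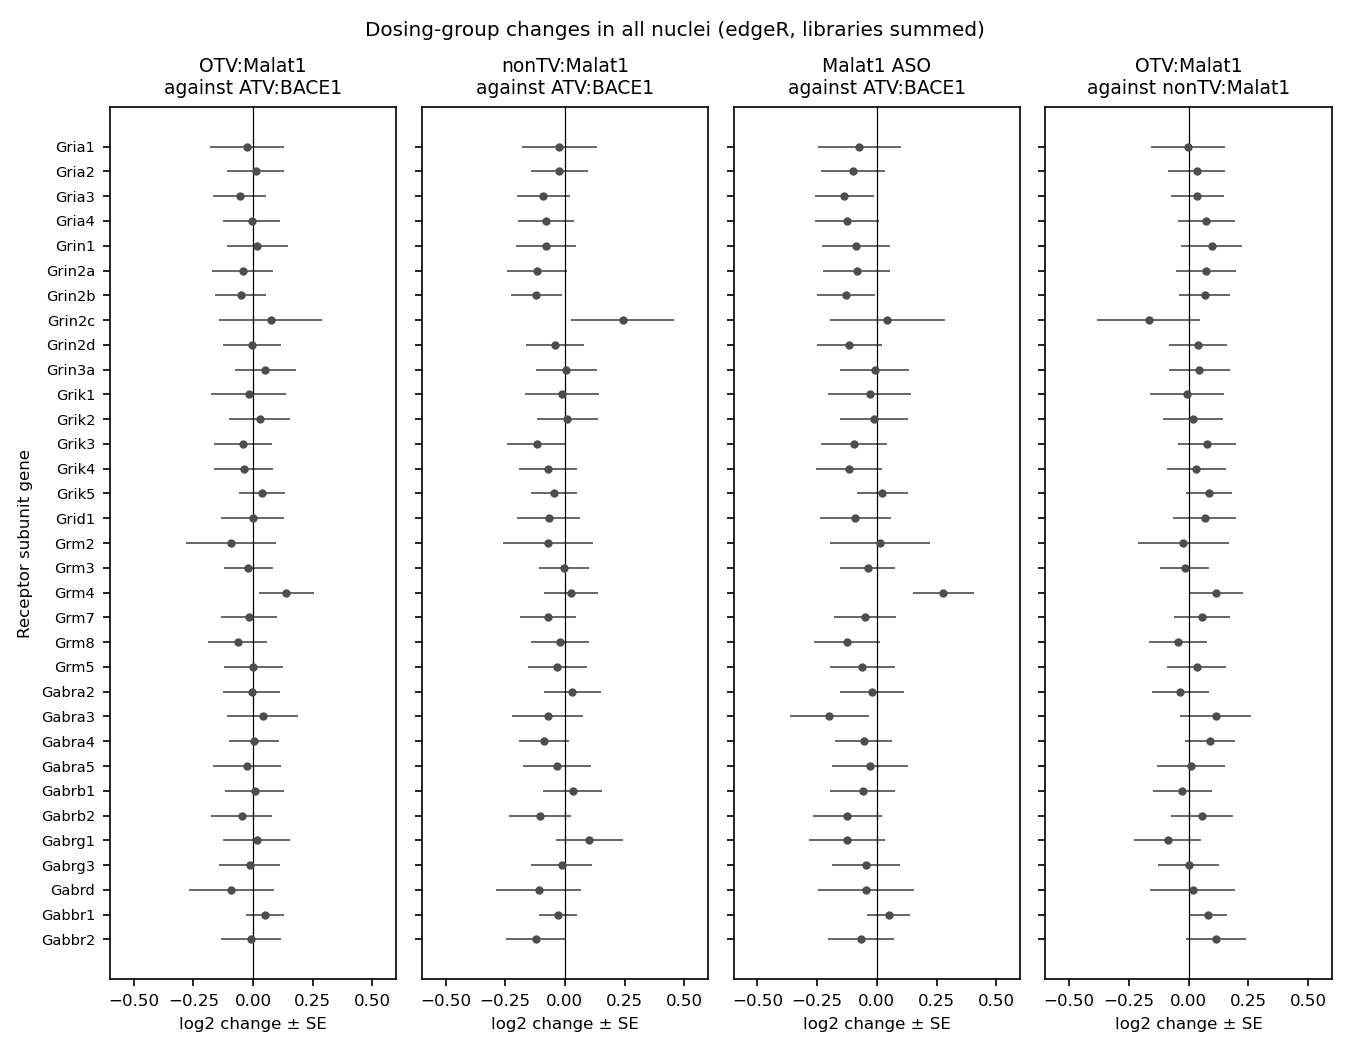
Log2 change ± SE of the 33 genes in the sum of all nuclei for 4 comparisons of dosing groups (edgeR, 11 libraries). Most standard error bars cross 0 and no gene passes the adjusted threshold.

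For Gria2 the group means (TMM-scaled CPM ± SD) were 1417 ± 181 CPM in ATV:BACE1, 1393 ± 90.9 in nonTV:Malat1, 1429 ± 149 in OTV:Malat1 and 1324 ± 7.69 in Malat1 ASO. For Grin1 they were 369.9 ± 49.0 CPM in ATV:BACE1, 350.0 ± 37.0 in nonTV:Malat1, 375 ± 41.8 in OTV:Malat1 and 349 ± 24.7 in Malat1 ASO. For both genes ATV:BACE1, nonTV:Malat1 and OTV:Malat1 differed by less than the SD of the control group. That SD includes the spread between replicate numbers, so it is no measure of a dosing difference within a number. Gabrb2 was at 328 ± 50.1 CPM in ATV:BACE1, 305 ± 34.7 in nonTV:Malat1, 317 ± 30.8 in OTV:Malat1 and 301 ± 2.72 in Malat1 ASO. Grm5, whose product couples to Gq, was at 1577 ± 208 CPM in ATV:BACE1, 1543 ± 105 in nonTV:Malat1, 1581 ± 85.6 in OTV:Malat1 and 1515 ± 232 in Malat1 ASO. Grm4 was at 28.2 ± 1.33 CPM in ATV:BACE1, 28.6 ± 2.43 in nonTV:Malat1, 31.1 ± 1.43 in OTV:Malat1 and 34.2 ± 6.92 in Malat1 ASO. It was the member with an unadjusted p under 0.05, at 0.28 ± 0.13 (SE) in Malat1 ASO against ATV:BACE1 (adjusted p = 1.00). The members' medians depended on ATV:BACE1 replicate 4. Leaving it out removes replicate number 4 from the control but not from OTV:Malat1 and nonTV:Malat1, and Malat1 ASO has no replicate 4 here, so that the replicate numbers of the groups compared change with it. Without ATV:BACE1 replicate 4 the members' median became 0.12 in OTV:Malat1, 0.064 in nonTV:Malat1 and 0.05 in Malat1 ASO, and the members below 0 went from 20, 26 and 28 to 3, 6 and 9. With all 11 libraries and the replicate number as a block, the medians were -0.0011, -0.047 and 0.0022, with 17, 26 and 16 members below 0. The count of calls stayed at 0 in both fits.

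Within 8 deposited classes (and vascular smooth muscle as the ninth for OTV:Malat1 against nonTV:Malat1) and within the neurons of clusters 0, 1, 2, 5 and 9 the count was also 0 in each of the 4 comparisons. Over all genes and classes 0.00513% of tests were called for OTV:Malat1 against ATV:BACE1, 0.0% each for nonTV:Malat1 and Malat1 ASO against ATV:BACE1, and 0.00252% for OTV:Malat1 against nonTV:Malat1. Over the clusters the shares were 0.00262%, 0.0%, 0.0% and 0.00262%. Of 196 member tests in classes (205 for OTV:Malat1 against nonTV:Malat1), 7, 20, 8 and 9 had an unadjusted p under 0.05, where 1771, 1595 and 2030 of 77917 tests and 1383 of 79465 tests over all genes had one. Of 164 member tests in clusters there were 1, 0, 0 and 2, and 1029, 1013, 1659 and 972 of 76320 over all genes. In classes the members' share was above that of all genes in each of the 4 comparisons. For nonTV:Malat1 against ATV:BACE1, 7 of the 20 lay in pericytes. DESeq2 also called 0 of them, with 5, 16, 6 and 6 in classes and 0, 0, 0 and 2 in clusters at that level. With the replicate number as a block 0 members were called, with 12, 32, 22 and 22 in classes and 5, 7, 8 and 7 in clusters at that level. Whether the OTV:Malat1 change differed between neuronal clusters was tested with limma for 32 members, and 0 of 160 tests were called (0.0% of 53360 tests over all genes), with 9 at an unadjusted p under 0.05 (1948 over all genes).

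The widest differences lay in small classes with few counts. Grm8 in microglia had 8, 12 and 10 UMIs in the ATV:BACE1 libraries (86.4, 119 and 147 TMM-scaled CPM). It had 1, 0 and 3 UMIs in OTV:Malat1, 2, 1 and 2 in nonTV:Malat1 and 2 and 7 in Malat1 ASO, so that the control libraries did not overlap with the other 8. The adjusted p was 1.00 for OTV:Malat1 and 0.998 for nonTV:Malat1. It became 0.00654 and 0.0245 when genes with low counts were kept in the fit. How many of all genes were called in such unfiltered fits is not given here, and Grm8 was named after its values were seen. Grm5 in pericytes had 182, 148 and 98.6 CPM in nonTV:Malat1 and 25.9, 90.1 and 52.8 in ATV:BACE1, from 15 to 59 and from 6 to 11 UMIs (adjusted p = 0.295, and 0.0132 without the filter). Grin2b in pericytes had 139, 316 and 108 and 64.8, 57.3 and 84.5 CPM in these groups. The level of neuronal free RNA in pericytes, where the members' median ratio to neurons was 0.0987, was not tested between groups.

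Libraries with different replicate numbers did differ. Each contrast was fitted in a model with the dosing group as a term, and batch and age (and sex, for number 1 against 4 and 5) cannot be told apart in the values. The p-values measure the spread between these samples only. In the sum of all nuclei, fewer cells of a type and less RNA per cell cannot be told apart, and the share of neurons given above differed between the replicate numbers. For replicate number 1 against 4 and 5, 11 of 33 members were called in all nuclei, 2 higher and 9 lower, where 36.8% of all genes were called (18.2% higher and 18.5% lower). The members' share is near the background. The count was 5 without nonTV:Malat1 replicate 1, 6 without OTV:Malat1 replicate 1 and 7 without any 1 of 3 further libraries (ATV:BACE1 and nonTV:Malat1 of replicate 4, nonTV:Malat1 of replicate 5). Within the neuronal clusters 37 of 164 tests were called, 8 higher and 29 lower, where 21.4% of all tests were called (9.8% and 11.6%). The cluster count was 16 without nonTV:Malat1 replicate 1. The share of all genes called without each of these libraries is not given here, so the lower counts have no background beside them. By cluster there were 12 calls in cluster 0 (all genes 31.5%), 4 in cluster 1 (19.7%), 14 in cluster 2 (30.4%), 7 in cluster 5 (12.1%) and 0 in cluster 9 (4.56%).

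For replicate number 5 against 4, 15 of 33 members were called in all nuclei, Gabrd higher and 14 lower, where 18.2% of all genes were called (9.69% higher and 8.49% lower). The members' median was -0.20 (all genes 0.014), and 30 of 33 lay below 0. In the clusters 65 of 164 tests were called, 2 higher and 63 lower, against 12.5% of all tests (5.83% higher and 6.7% lower). There were 22 calls in cluster 0 (all genes 18.2%), 15 in cluster 1 (14.4%), 17 in cluster 2 (14.9%), 6 in cluster 5 (6.83%) and 5 in cluster 9 (3.29%). The number of calls, more than the direction, depended on single libraries. ATV:BACE1 replicate 4 was the highest of the 11 libraries for 25 of 33 members in all nuclei and for 20, 20 and 18 in clusters 0, 1 and 2. The share of all genes highest in that library is not given here, so these counts do not set the members apart. That library also had the lowest share of mitochondrial UMIs, 0.0149% against 0.0164 to 0.0456% in the other 10 libraries. The part of this in the result was not tested. Without ATV:BACE1 replicate 4, 0 of 33 members were called in all nuclei, 30 still lay below 0 and the median was -0.15, while the calls among all genes fell from 3893 to 372. In the clusters 17 calls were left, 1 of them, Grik1 in cluster 2, new and higher. The count in all nuclei was 3 without OTV:Malat1 replicate 5, 7 without ATV:BACE1 replicate 5, 8 without either Malat1 ASO library or nonTV:Malat1 replicate 5, and 9 without OTV:Malat1 replicate 4. For these counts, and for the 17 cluster calls, the share of all genes called is not given here. Scaling by total counts in place of TMM moved the median of all genes from 0.014 to 0.11 and that of the members to -0.098, with 27 below 0 and 9 calls. The share of all genes called with that scaling is not given here.

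**Figure D4:**
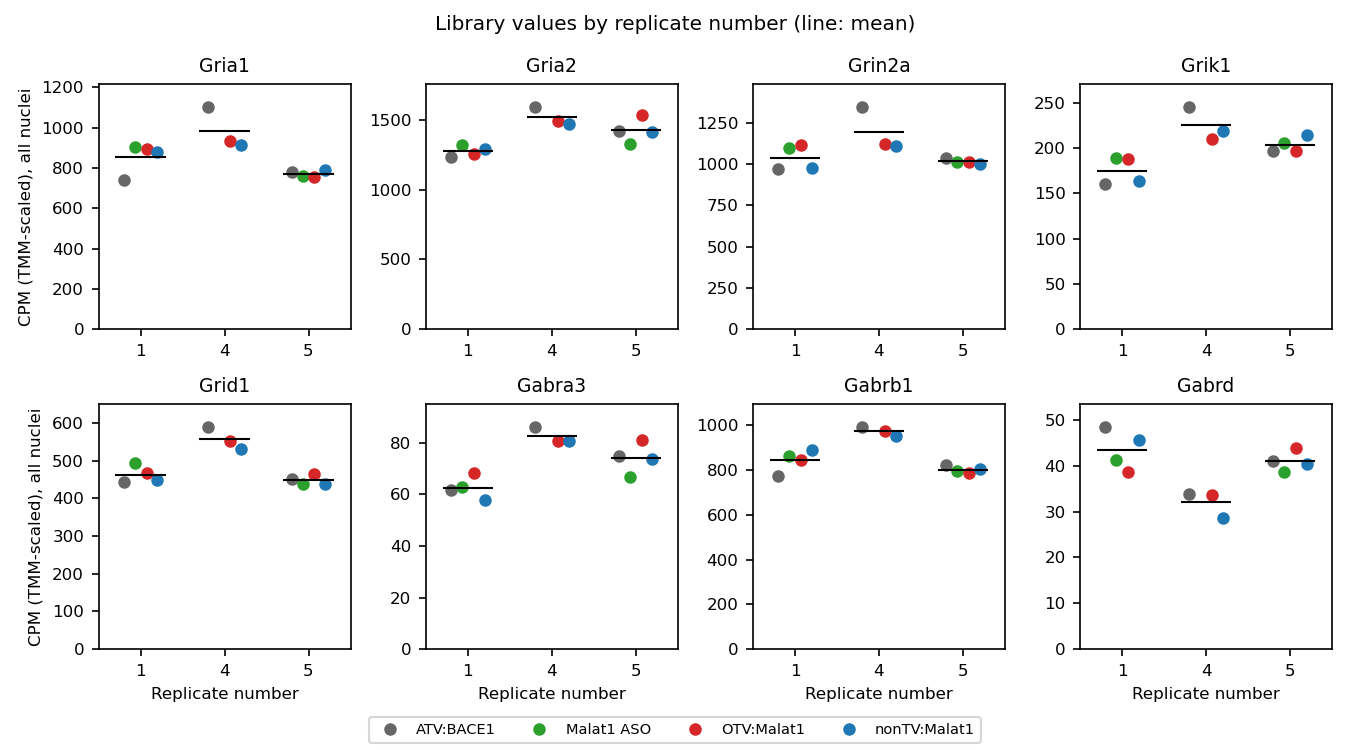
TMM-scaled CPM in the sum of all nuclei for 8 of the receptor genes, each point 1 library, placed by replicate number and coloured by dosing group, with a line at the mean of each replicate number. The mean of replicate 4 is the highest of the 3 for every gene shown but Gabrd, for which it is the lowest, and ATV:BACE1 is the top library of replicate 4 in 7 of these.

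In the sentences that follow, the values are TMM-scaled CPM of all nuclei unless a cluster is named. The libraries are always in the order ATV:BACE1, Malat1 ASO, OTV:Malat1 and nonTV:Malat1 in replicates 1 and 5, and ATV:BACE1, OTV:Malat1 and nonTV:Malat1 in replicate 4. Changes are on the log2 scale ± SE from edgeR's quasi-likelihood test.

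Among the AMPA subunits, Gria1 stood at 739, 906, 892 and 878 CPM in replicate 1, 1104, 935 and 913 CPM in replicate 4 and 780.4, 759, 756 and 791 CPM in replicate 5. Every replicate 4 library lay above those of replicates 1 and 5, and the change in 5 against 4 was -0.36 ± 0.09 (SE, adjusted p = 0.0196). In cluster 2 it was -0.45 ± 0.071, and -0.36 ± 0.072 without ATV:BACE1 replicate 4, where it was still called. Gria2 had 1233, 1318, 1258 and 1294 CPM in replicate 1, 1595, 1492 and 1472 CPM in replicate 4 and 1423, 1329, 1535 and 1413 CPM in replicate 5. All 4 replicate 1 libraries lay below the other 7 (-0.21 ± 0.057 SE, adjusted p = 0.015), with -0.18 ± 0.043 in cluster 0. Gria4 had 782, 838, 845 and 759 CPM in replicate 1, 1031, 941 and 929.9 CPM in replicate 4 and 852, 794, 873 and 833 CPM in replicate 5. Its replicate 1 against 4 and 5 change was -0.16 ± 0.054 (SE, adjusted p = 0.034), and in the clusters it was called for 5 against 4, for example -0.27 ± 0.054 in cluster 0. Gria3 was called only within clusters 0 and 2, and in cluster 2 it had 770.3, 791, 776 and 799 CPM in replicate 1, 915, 859.9 and 853 CPM in replicate 4 and 732, 699, 736 and 732 CPM in replicate 5. Its replicate 5 libraries lay below those of replicate 4 there (-0.26 ± 0.061 SE, adjusted p = 0.00774).

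Of the NMDA subunits, Grin1 had 325, 367, 327 and 313 CPM in replicate 1, 422, 392 and 387 CPM in replicate 4 and 363, 332, 405 and 349.9 CPM in replicate 5. Replicate 1 was below replicate 4 and overlapped with replicate 5 (-0.20 ± 0.064 SE, adjusted p = 0.027). Grin2d, at low counts, had 19.2, 17.8, 19.1 and 17.0 CPM in replicate 1, 20.1, 21.3 and 20.5 CPM in replicate 4 and 22.4, 20.3, 21.2 and 22.4 CPM in replicate 5. Its 4 replicate 1 values were the lowest of the 11 (-0.20 ± 0.056 SE, adjusted p = 0.0148). Grin2c, the astrocyte-rich member, had 17.0, 21.6, 20.6 and 25.5 CPM in replicate 1, 22.2, 22.6 and 21.7 CPM in replicate 4 and 15.2, 15.8, 14.1 and 17.1 CPM in replicate 5. Replicate 5 lay below replicate 4 without overlap, at -0.53 ± 0.099 (SE, adjusted p = 0.00743). Within astrocytes it stood at 156, 232, 250.3 and 214 CPM in replicate 1, 238, 209 and 225 CPM in replicate 4 and 165, 182, 150.1 and 165 CPM in replicate 5, and the replicate contrasts were not tested there. In neurons of clusters 0, 1 and 2 it was lower in replicate 1 than in 4 and 5, at -0.54 ± 0.15, -0.52 ± 0.13 and -0.43 ± 0.14. Grin3a had 80.1, 98.7, 97.7 and 87.3 CPM in replicate 1, 108, 105 and 104 CPM in replicate 4 and 89.8, 85.9, 85.9 and 87.8 CPM in replicate 5, again with replicate 4 above both others (-0.29 ± 0.071 SE, adjusted p = 0.0177). Grin2a was called in neurons, and in cluster 0 it had 1471, 1664, 1729 and 1637 CPM in replicate 1, 1915, 1767 and 1726 CPM in replicate 4 and 1385, 1424, 1285 and 1409.8 CPM in replicate 5. The 4 replicate 5 values lay below all of replicate 4 (-0.41 ± 0.067 SE, adjusted p = 0.00237), and the change was -0.34 ± 0.079 and called without ATV:BACE1 replicate 4. Grin2b in cluster 2 had 1381, 1404, 1573 and 1395 CPM in replicate 1, 1681, 1533 and 1548 CPM in replicate 4 and 1301, 1330.3, 1294 and 1328 CPM in replicate 5, with the same order (-0.26 ± 0.068 SE, adjusted p = 0.0132).

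Among kainate subunits, Grik1 had 160.0, 189, 188 and 163 CPM in replicate 1, 246, 210.2 and 219 CPM in replicate 4 and 197, 205, 197 and 214 CPM in replicate 5. The 4 replicate 1 libraries were the lowest (-0.31 ± 0.065 SE, adjusted p = 0.00358), and the widest change lay in cluster 2, at -0.75 ± 0.082 (SE, adjusted p = 1.78e-06). There its values were 51.5, 60.7, 51.2 and 53.1 CPM in replicate 1, 94.4, 75.2 and 74.7 CPM in replicate 4 and 87.8, 94.6, 92.7 and 111 CPM in replicate 5, and the share of neurons in cluster 2 was 19.1 to 28.8% in replicate 1 and 15.9 to 20.9% in replicates 4 and 5. Grik2 had 1049, 1302, 1232 and 1216 CPM in replicate 1, 1424, 1352 and 1281 CPM in replicate 4 and 1166, 1108, 1130.5 and 1167 CPM in replicate 5. Grik3 had 109, 121, 128 and 119 CPM in replicate 1, 144, 121 and 115 CPM in replicate 4 and 112, 107, 105 and 102 CPM in replicate 5. Both had replicate 5 below replicate 4 without overlap, at -0.25 ± 0.08 (SE, adjusted p = 0.0456) and -0.25 ± 0.079 (SE, adjusted p = 0.0492). Grik4 had 122, 132, 133 and 117 CPM in replicate 1, 160.2, 143 and 145 CPM in replicate 4 and 127, 119.7, 122 and 127 CPM in replicate 5, with replicate 4 on top (-0.27 ± 0.065 SE, adjusted p = 0.0174). Its change stayed called without ATV:BACE1 replicate 4 in cluster 0 (-0.32 ± 0.081) and cluster 5 (-0.57 ± 0.12). Called doublets, 45.3% of the neurons of cluster 5, were kept in these fits. Grik5 went the other way in cluster 0, where it had 119, 136, 125 and 128 CPM in replicate 1, 119.5, 119.9 and 106 CPM in replicate 4 and 102, 104, 108 and 99.8 CPM in replicate 5. It was higher in replicate 1 than in 4 and 5 (0.20 ± 0.051 SE, adjusted p = 0.00786), with overlapping values. The delta subunit gene Grid1 had 444, 493, 468 and 448 CPM in replicate 1, 591, 552 and 531 CPM in replicate 4 and 451, 439, 466 and 439 CPM in replicate 5. It was lower in replicate 5 than in replicate 4 in all nuclei (-0.32 ± 0.061 SE, adjusted p = 0.00774) and in clusters 0, 1, 2 and 5, and its call held in those 4 clusters without ATV:BACE1 replicate 4, at -0.29 ± 0.071, -0.35 ± 0.066, -0.41 ± 0.069 and -0.33 ± 0.085.

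Among metabotropic receptors, Grm5 was called in cluster 2, where it had 2951, 3172, 3303 and 3138 CPM in replicate 1, 3278, 3315 and 3201 CPM in replicate 4 and 2479, 2325, 2448 and 2419 CPM in replicate 5. Replicate 5 was below replicate 4 without overlap (-0.42 ± 0.063 SE, adjusted p = 0.0004), also without ATV:BACE1 replicate 4 (-0.40 ± 0.07). Grm4 had 28.7, 39.1, 32.4 and 31.4 CPM in replicate 1, 29.1, 31.2 and 27.3 CPM in replicate 4 and 26.6, 29.3, 29.6 and 27.2 CPM in replicate 5, and replicate 1 was higher than 4 and 5 with overlap (0.16 ± 0.057 SE, adjusted p = 0.0436). In cluster 2 the change was wider, at 0.48 ± 0.065 (SE, adjusted p = 2.30e-05). Grm8 had 313, 349, 334 and 334 CPM in replicate 1, 439, 365 and 396 CPM in replicate 4 and 359, 331, 364 and 366 CPM in replicate 5, lower in replicate 1 (-0.18 ± 0.061 SE, adjusted p = 0.0332). Grm3 in cluster 1 had 174, 174, 185 and 164 CPM in replicate 1, 219, 211 and 221 CPM in replicate 4 and 232, 192, 229.6 and 214 CPM in replicate 5. Its 4 replicate 1 values were the lowest (-0.32 ± 0.057 SE, adjusted p = 0.00076). Grm7 in cluster 9 had 1468, 1817, 1814 and 1691 CPM in replicate 1, 2040.2, 2220.0 and 1693 CPM in replicate 4 and 1332, 1636, 1341 and 1431 CPM in replicate 5, with replicate 5 below replicate 4 (-0.50 ± 0.095 SE, adjusted p = 0.00159). Grm2 had no call in any main comparison and lay at 3.48 to 5.49 CPM.

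Of the GABA-A alpha subunits, Gabra3 had 61.8, 62.8, 68.2 and 57.7 CPM in replicate 1, 86.3, 80.6 and 80.6 CPM in replicate 4 and 75.1, 66.9, 81.0 and 73.9 CPM in replicate 5. Replicate 1 was lower than 4 and 5 in all nuclei (-0.32 ± 0.054 SE, adjusted p = 0.000954) and in clusters 0, 1 and 2. Gabra5 had 40.0, 42.0, 42.3 and 39.2 CPM in replicate 1, 54.6, 50.2 and 51.9 CPM in replicate 4 and 47.0, 50.5, 46.9 and 47.1 CPM in replicate 5. All of replicate 1 lay below the other libraries (-0.31 ± 0.046 SE, adjusted p = 0.000435), and it was called lower in clusters 0, 1, 2 and 5. Gabra2 had 262, 316, 300.0 and 305 CPM in replicate 1, 353, 327 and 319.6 CPM in replicate 4 and 286, 276, 271 and 294 CPM in replicate 5, with replicate 4 above both others (-0.25 ± 0.073 SE, adjusted p = 0.0346). Gabra4 had 146, 158, 156 and 154 CPM in replicate 1, 166, 160.2 and 141 CPM in replicate 4 and 141, 133, 138 and 131 CPM in replicate 5. Replicate 5 was lower than replicate 4 with overlap (-0.19 ± 0.062 SE, adjusted p = 0.0487), and in cluster 2 the change was -0.39 ± 0.07, called also without ATV:BACE1 replicate 4 (-0.37 ± 0.082).

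For the beta subunits, Gabrb1 had 775, 863, 844 and 889 CPM in replicate 1, 994, 976 and 954 CPM in replicate 4 and 821, 796, 785 and 805 CPM in replicate 5. Gabrb2 had 285, 299, 289 and 267 CPM in replicate 1, 383, 349.8 and 335 CPM in replicate 4 and 315, 303, 313 and 312 CPM in replicate 5. Replicate 4 was above replicates 1 and 5 for both genes, at -0.28 ± 0.064 (SE, adjusted p = 0.0138) for Gabrb1 and -0.20 ± 0.06 (SE, adjusted p = 0.0406) for Gabrb2 in 5 against 4. Gabrb2 was in addition lower in replicate 1 than in every other library (-0.23 ± 0.049 SE, adjusted p = 0.00319), and it had the most calls of the 33 members, 8 over the 2 contrasts. Gabrg1 had 27.6, 28.8, 27.7 and 32.1 CPM in replicate 1, 32.9, 38.2 and 34.9 CPM in replicate 4 and 30.2, 26.7, 25.9 and 30.4 CPM in replicate 5, with replicate 4 on top (-0.31 ± 0.08 SE, adjusted p = 0.0233). Gabrg3 had 757, 894, 814 and 877 CPM in replicate 1, 984, 907 and 860.2 CPM in replicate 4 and 775, 736, 774 and 755 CPM in replicate 5, lower in replicate 5 than in 4 (-0.28 ± 0.076 SE, adjusted p = 0.0277). In cluster 2, Gabrg3 changed by -0.50 ± 0.072, and by -0.43 ± 0.078 without ATV:BACE1 replicate 4. Gabrd was the exception, with 48.6, 41.2, 38.7 and 45.7 CPM in replicate 1, 33.9, 33.6 and 28.5 CPM in replicate 4 and 41.1, 38.7, 43.8 and 40.4 CPM in replicate 5. Replicate 4 was its lowest, and it was higher in replicate 5 than in 4 (0.39 ± 0.084 SE, adjusted p = 0.012) and in replicate 1 than in 4 and 5 (0.27 ± 0.066 SE, adjusted p = 0.00761). In cluster 0 the 5 against 4 change was 0.50 ± 0.095, called also without ATV:BACE1 replicate 4 (0.49 ± 0.12).

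The GABA-B subunit Gabbr2 had 331, 372, 397 and 322 CPM in replicate 1, 431, 364 and 359.9 CPM in replicate 4 and 329.9, 324, 326 and 320.5 CPM in replicate 5. Replicate 5 lay below replicate 4 (-0.25 ± 0.081 SE, adjusted p = 0.0493), and in cluster 9 the change of -0.55 ± 0.10 was -0.48 ± 0.12 and called without ATV:BACE1 replicate 4. Gabbr1, its partner, had 134, 134, 128 and 132 CPM in replicate 1, 125, 134 and 119.5 CPM in replicate 4 and 117, 127, 129.5 and 118 CPM in replicate 5. No Gabbr1 change was called, and the values of the 3 replicate numbers overlapped.

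Most receptor genes are long, and long genes moved with the replicate number as a whole. The members span 13.0 kb (Grm2) to 922 kb (Grm7) with a median of 224 kb, and 23 of 33 exceed 100 kb. For replicate number 5 against 4 in all nuclei, the median change of all genes was 0.21 for spans under 10 kb (6330 genes), 0.065 from 10 to 30 kb, -0.061 from 30 to 100 kb, -0.19 from 100 to 300 kb (2127 genes) and -0.23 over 300 kb (589 genes). The 9 members from 100 to 300 kb had a median of -0.20 and the 14 over 300 kb one of -0.25, close to those of all genes of their length. Without ATV:BACE1 replicate 4 the order held, from 0.18 to -0.17 for all genes, with -0.16 for the members over 300 kb. The share of neuronal UMIs on genes over 100 kb was 54.9 to 57.3% in the 3 replicate 4 libraries, 51.6 to 54.6% in replicate 1 and 51.2 to 53.1% in replicate 5. Short members did not follow 1 direction: Gabrd (13.1 kb) was higher and Grin2c (18.1 kb) lower in replicate 5. For replicate number 1 against 4 and 5 the medians of all genes ran from 0.044 under 10 kb to -0.10 over 300 kb, and that of the 14 longest members was -0.097. The part of gene length in the members' calls was not tested.

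**Figure D5:**
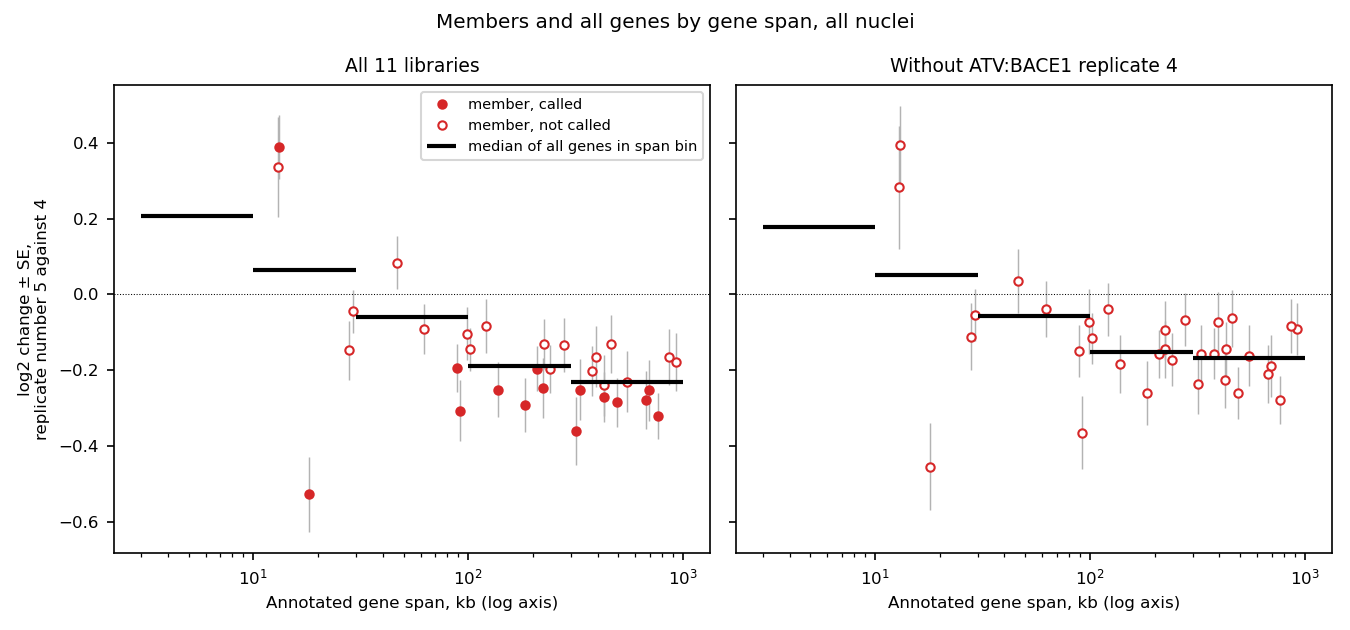
Log2 change of replicate number 5 against 4 in all nuclei ± SE against gene span in kb (log axis) for the 33 genes, with all 11 libraries (left) and without ATV:BACE1 replicate 4 (right). Black bars are the median change of all genes in each span class. Most members over 100 kb lie near the bars below 0, and Gabrd and Grin2c stand apart.

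The partners of the receptors were read from 4 lists with 55 genes. For replicate number 1 against 4 and 5 in all nuclei, 8 of 14 auxiliary subunits of AMPA and kainate receptors were called (7 higher, 1 lower), 5 of 19 glutamatergic scaffold genes (5 higher), 1 of 8 GABA receptor scaffold genes (higher) and 8 of 14 genes of transmitter synthesis and transport (7 higher, 1 lower). Together 20 of 55 were higher and 2 lower, with a median of 0.069, against 18.2% and 18.5% of all genes, while 9 of the 11 receptor subunits called in that contrast were lower. In the clusters 62 of 270 tests were called higher and 9 lower, where 9.8% and 11.6% of all tests were. For 5 against 4 in all nuclei the lists had 6 (1 higher), 3 (0 higher), 4 (2 higher) and 5 (0 higher) calls, where 9.69% of all genes were called higher and 8.49% lower. In the clusters 76 of 270 tests were called, 70 of them lower, where 12.5% of all tests were called (6.7% lower). The lists were not refitted without ATV:BACE1 replicate 4. In cluster 2, replicate 1 was higher for the postsynaptic scaffold Dlg4 at 0.49 ± 0.06 (adjusted p = 7.25e-06), for the AMPA auxiliary subunit Cacng3 at 0.51 ± 0.07 (adjusted p = 2.43e-05) and for the GABA-degrading enzyme Abat at 0.37 ± 0.063 (adjusted p = 0.000221). Dlgap4, a scaffold gene, was higher in cluster 0 at 0.44 ± 0.052 (adjusted p = 3.05e-05), and Glul, the glutamine synthetase of astrocytes, in all nuclei at 0.59 ± 0.08 (adjusted p = 0.000205). For Glul in that sum, a larger share of astrocytes and more RNA per cell cannot be told apart. Within astrocytes Glul stood at 530, 785, 778 and 784 CPM in replicate 1. Replicate 4 had 481, 500 and 600 CPM there and replicate 5 had 437, 581, 428 and 380. The replicate contrasts were not tested in astrocytes. Homer1, which links group I metabotropic receptors to calcium stores, was higher in cluster 5 at 0.68 ± 0.072 (adjusted p = 9.95e-09). This order was not particular to cluster 5. In cluster 0 Homer1 had 398, 714, 664 and 556 CPM in replicate 1, with overlap with the others. Replicate 4 had 251, 363 and 426 CPM there and replicate 5 had 232, 419, 291 and 259. For 5 against 4, Cacng4 fell in cluster 5 by 0.94 on the log2 scale (adjusted p = 8.86e-06), and the auxiliary subunit genes Neto1 in cluster 5 and Shisa6 in cluster 9 changed by -0.62 ± 0.10 (adjusted p = 9.16e-05) and -0.74 ± 0.12 (adjusted p = 0.000235). Of the cluster 5 neurons, 45.3% are called doublets. The astrocyte marker Slc1a3 stood there at 420, 387 and 414 CPM in replicate 4 and 292, 283, 318 and 325 in replicate 5. The part of this in the cluster 5 changes was not tested.

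Between dosing groups 0 of the 55 genes were called in the main fits, in all nuclei, classes or clusters. With the replicate number as a block, Homer1 was called for Malat1 ASO against ATV:BACE1 (2 and 3 libraries) in all nuclei at 0.70 ± 0.084 (adjusted p = 0.0159), in neurons at 0.75 ± 0.084 (adjusted p = 0.00714) and in clusters 0, 1, 2 and 5, while the receptor subunits kept 0 calls in that fit. Over all genes that fit called 4 of 21409 in all nuclei, 38 of 77917 tests in classes and 74 of 76320 in clusters for this comparison, and 20 of 77917 in classes for nonTV:Malat1 against ATV:BACE1. Homer1 had 281, 479, 420.3 and 384 CPM in replicate 1, 231, 280.4 and 289.7 CPM in replicate 4 and 193, 309, 251 and 213 CPM in replicate 5. The Malat1 ASO library was the highest of replicate 1 and of replicate 5. The ATV:BACE1 library was the lowest of each replicate number, also below OTV:Malat1 and nonTV:Malat1, whose comparisons with it were not called in all nuclei. Glul in leptomeningeal cells and Slc1a2 in vascular endothelium were called in that comparison too (named after their values were seen), at 0.96 ± 0.20 (adjusted p = 0.0381) and -1.38 ± 0.28 (adjusted p = 0.0209), and Dlg2 in microglia for nonTV:Malat1 against ATV:BACE1 at -0.89 ± 0.22 (adjusted p = 0.0401).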

How the data were processed

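Single-nucleus RNA was measured in 11 frozen brain samples. The deposited matrix holds UMI counts per gene and nucleus, made by the authors with Cell Ranger 5.0.0, Seurat 4 and mm10, per the submitters' processing notes. Clusters, cell names, doublet calls and batch numbers were taken from the deposited metadata. Ambient-RNA correction is not given in the sources used here.

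Counts were summed per library over all nuclei, per deposited class and per cluster of nuclei named neurons (at least 20 nuclei in a library, at least 2 libraries per group). edgeR 4.0.16 (R 4.3.3; TMM, filterByExpr, quasi-likelihood test) was fitted with the 4 dosing groups, or with dosing group and replicate number, and adjusted over all genes at a threshold of 0.05. DESeq2 1.42.0 was an alternative, and limma 3.58.1 tested differences between clusters. Called doublets (10.4% of nuclei) were kept, with their removal as an alternative. Levels by class or cluster are CPM, averaged over 11 libraries, without a test. The scripts were tested on simulated data.

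Same-numbered libraries of different groups deviated together (r from 0.643 to 0.889, median 0.802, 15 pairs over 10474 genes; different numbers had a median of -0.542), and each number is 1 deposited batch, so the number pairs the samples and a fit with it as a block was run.

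Spans and positions came from GENCODE vM21 and promoter windows from RefSeq. Members were described library by library where called in a main fit or, without a call, where the ratio of the highest to the second cluster or class was the largest of the family. At most 10 genes of the other lists were named, in order of adjusted p, and 1 of them is not reported here. The members and lists were chosen with earlier results of these data known.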

Additional observations from a re-analysis of the deposited data

How the results depend on the processing

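With the replicate number as a replicate block, 0 receptor subunits were called in each of the 12 comparisons of dosing groups (all nuclei, classes and clusters), as without it, and the limma test between clusters also kept 0 calls with the block. The counts of 0 also held with DESeq2, with total counts without TMM, without nuclei under 1000 UMIs and without doublets. Without the filter on low counts, the count in classes was 1 for OTV:Malat1 against ATV:BACE1 (Grm8 in microglia) and 3 for nonTV:Malat1 against ATV:BACE1 (Grm8 in microglia, Grm5 and Grin2b in pericytes), each on few UMIs. Leaving out each library in turn gave 0 to 1 for the latter. The counts of all genes called without the filter are not given here. Leaving out a library gave 5 to 12 calls for replicate number 1 against 4 and 5 in all nuclei and 16 to 35 in clusters, and 0 to 19 and 17 to 75 for 5 against 4. The matching calls over all genes are given only for 5 against 4 in all nuclei without ATV:BACE1 replicate 4, where they fell too. Whether these ranges are particular to the members was not tested. DESeq2 called 21 cluster tests for 1 against 4 and 5, in place of 37. Total counts without TMM gave 9 calls in all nuclei and 37 in clusters for 5 against 4, in place of 15 and 65. The share of all genes called under these 2 settings is not given here, so the lower counts do not set the members apart. The cause of these changes in count was not tested. Gabrb1 in cluster 5 turned from -0.28 to 0.17 in 5 against 4 without doublets. Calls kept under every alternative numbered 4 of 11 and 11 of 37 for 1 against 4 and 5, and 0 of 15 and 16 of 65 for 5 against 4. The share of calls kept over all genes is not given here. The highest place of Grm3 changed from oligodendrocytes to astrocytes without nuclei under 1000 UMIs, and that of Grin2b and Gabbr2 between clusters 0, 1 and 2 without doublets. With clusters 5 and 9 included, Grin3a, Grik1, Grik3, Grid1, Grm3 and Gabrb1 changed their highest cluster too without doublets, and Grik4 without nuclei under 1000 UMIs. The fit of vascular smooth muscle without nuclei under 1000 UMIs was not run, because too few nuclei were left. Microglia and pericytes hold few UMIs per member, down to 0 for Grm8 in a microglia library, so that changes there are imprecise.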
